A study of Bos taurus with 40 samples.

Results

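Galectins are proteins that bind beta-galactoside sugars, and 6 named genes were followed here: the galectins LGALS1, LGALS3, LGALS4, LGALS8 and LGALS9, and LGALS3BP, a secreted glycoprotein that binds galectin-3. They were taken by name from the 32671 named genes of a table of read counts from bovine endometrium, the lining of the uterus. All 6 names matched a row, and 5 of them were among the 20356 genes that held enough reads to be tested. LGALS9 was the exception, as described below.

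The study sampled endometrium of synchronized heifers at slaughter on day 5, 7, 13 or 16 after estrus, with 5 heifers a day. Each heifer gave tissue from both uterine horns, the ipsilateral horn on the side of the corpus luteum, which is the ovarian gland that makes progesterone after ovulation, and the contralateral horn on the other side. The 40 libraries therefore fall into 8 groups of 5, ipsilateral and contralateral on each day, and the title of the series asks whether differences between the horns bear on growth of the conceptus. The sample labels speak of pregnancy and the series text of days from estrus, and neither says whether an embryo was present. No treatment separated the groups, and the tissue was a homogenate of the whole endometrium, so every value below is a mean over its cell types.

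Galectins lack a signal peptide for the classical secretory route, yet many of them act outside the cell, where they cross-link glycoproteins on cell surfaces and in the matrix. Inside the cell, some of them bind sugars exposed on damaged vesicles and recruit the autophagy machinery. In the uterus of several mammals galectins are known for roles in cell adhesion and in maternal immune tolerance, and a ruminant-specific galectin is a known secretion of the sheep endometrium before implantation. By structure, galectin-1 is of the prototype kind with a single sugar-binding domain, galectin-3 is the chimera kind with a long flexible tail, and galectins 4, 8 and 9 carry a pair of sugar-binding domains in tandem.

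The libraries held 27.03 to 64.4 M reads in genes (M, 1e6 reads), and all but the deepest held at most 41.3 M. Levels are given as counts per 1e6 reads (CPM) after TMM scaling, which corrects for library size and composition. CPM does not correct for gene length, so levels are compared only within a gene. On the first principal component, 1 ipsilateral day-16 library (tag 5-137) scored -6.91 where the other 4 of its group scored -56.8 to -50.3. The defining markers of epithelium, stroma, smooth muscle and blood vessels were present in the libraries, with 0 genes of these lists at 0 reads throughout. Each heifer's tag in the sample titles should join its 2 horns, but the tags paired the libraries poorly, and the horns are compared without that pairing. The labels do not give sequencing batches. The horns of a day come from the same heifers, so a change seen in both horns is not an independent repeat.

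LGALS1 and LGALS3 fell from day 5 to day 7, LGALS4 peaked on day 13, LGALS8 was higher in the ipsilateral horn with little change over days, and LGALS3BP was lower in the ipsilateral horn when the days were averaged. Of the 5 genes tested, 3 passed the test in the ipsilateral horn from day 5 to 7 (1 higher, 2 lower), where 30.7% of all tested genes passed (15.9% higher and 14.8% lower). A gene passed at an adjusted p below 0.05 in edgeR's quasi-likelihood test. In the contralateral horn 2 passed, both lower, where 19.8% of all genes passed (10.1% higher, 9.65% lower). From day 7 to 13, 2 passed in each horn, 1 higher and 1 lower, against 29.8% of all genes in the ipsilateral horn (14.5% higher, 15.3% lower) and 32.9% in the contralateral horn (15.8% higher, 17.1% lower). From day 13 to 16, 1 gene passed in each horn, LGALS4, which was lower. At that step only 1.02% of all genes passed in the ipsilateral horn (0.452% higher, 0.57% lower) and 1.33% in the contralateral horn (0.432% higher, 0.899% lower). Over all 4 days 3 of the 5 differed between days in each horn, LGALS1, LGALS3 and LGALS4, against 57.3% of all genes in the ipsilateral and 55.2% in the contralateral horn.

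**Figure D1:**
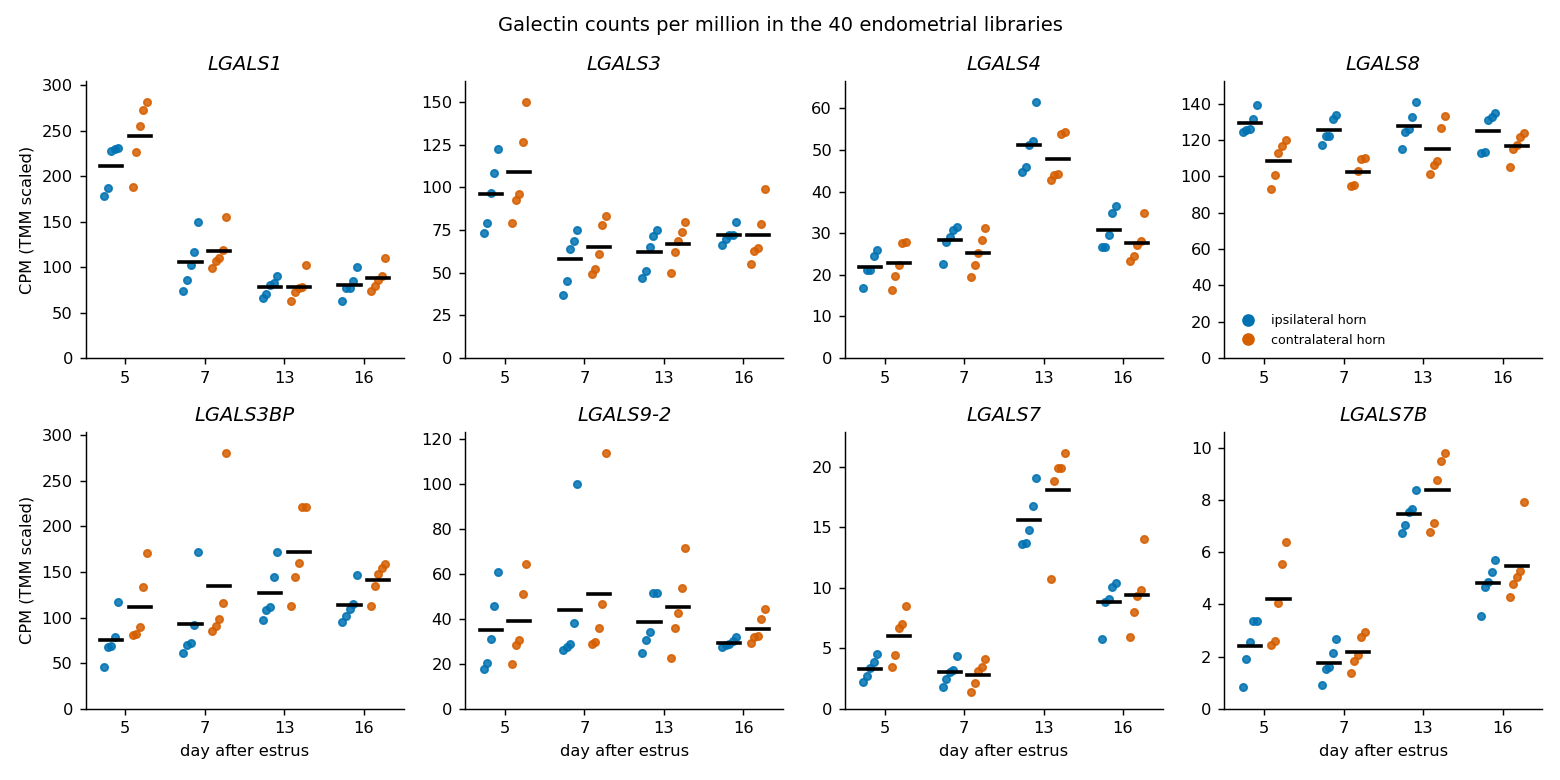
CPM (TMM scaled, linear axis from 0) of 8 galectin rows in each of the 40 libraries, by day after estrus. Points are libraries, blue for the ipsilateral and orange for the contralateral horn, and black bars are group means (n = 5). LGALS1 was highest on day 5, LGALS4, LGALS7 and LGALS7B on day 13, and single libraries stood high for LGALS3BP and LGALS9-2.

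LGALS1 encodes galectin-1, which is abundant in fibroblasts and is known for dampening T cell responses. In the ipsilateral horn its level was 179, 187, 227, 230.0 and 231 CPM in the 5 libraries of day 5. On day 7 the same horn held 73.8, 86.0, 102, 117 and 149 CPM. Every ipsilateral library of day 5 lay above every one of day 7. The contralateral libraries of day 5 held 188, 226, 255, 272 and 281 CPM. On day 7 they held 99.5, 106, 110.1, 119 and 155 CPM, again without overlap with day 5. LGALS1 fell by 1.00 ± 0.16 (SE) on the log2 scale in the ipsilateral horn, a 2.00-fold fall, with an adjusted p of 1.35e-05. The contralateral means were 245 ± 37.8 and 118 ± 21.7 CPM (SD, n = 5), and LGALS1 fell by 1.05 ± 0.16, a 2.07-fold fall, with an adjusted p of 1.31e-05.

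A second, smaller fall in LGALS1 followed from day 7 to 13. The ipsilateral libraries of day 13 held 66.0, 70.6, 80.1, 82.3 and 90.1 CPM, and the contralateral ones 63.2, 72.3, 76.9, 77.8 and 103 CPM. Both groups overlapped day 7. LGALS1 fell by 0.58 ± 0.16 on the log2 scale (adjusted p = 0.00364) in the contralateral horn. In the ipsilateral horn LGALS1 fell by 0.44 ± 0.16 (1.36-fold, adjusted p = 0.0303). That ipsilateral call was lost with no low-count filter (adjusted p = 0.0606), in a fit of only the 2 groups compared (0.0785), and when any of 4 libraries was left out (day 7 tags 2-1337 and 2-371, day 13 tags 4-1314 and 5-140), with adjusted p up to 0.173.

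Between days 13 and 16 LGALS1 did not pass in either horn. Its day-16 libraries ranged from 62.7 to 100.5 CPM with a median of 76.9 in the ipsilateral horn and from 74.2 to 110.3 CPM with a median of 86.0 in the contralateral horn. The log2 change was 0.04 (95% interval -0.27 to 0.36, adjusted p = 0.952) in the ipsilateral and 0.16 (-0.15 to 0.48, adjusted p = 0.742) in the contralateral horn. Ordered by mean, LGALS1 was highest in the contralateral horn on day 5 (245 ± 37.8 CPM, SD, n = 5) and next in the ipsilateral horn on day 5 (211 ± 25.7). Those 2 groups overlapped each other, but no library of any other group reached them. The other 6 groups, with means from 77.8 to 118 CPM, each overlapped the next in order.

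The genes whose log2 CPM was most like that of LGALS1 over the 40 libraries were LOXL1, an enzyme that cross-links elastin and collagen (Pearson r = 0.97), GLIPR2 (0.97) and CKAP4, a membrane protein of the endoplasmic reticulum (0.96). After the group means were removed, a step added after the first values were seen, these r were 0.82, 0.81 and 0.71. The 40 points share days, horns and heifers, and each gene was picked for its r out of all those tested, so these values only describe the libraries.

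Stromal markers fell with LGALS1 from day 5 to 7. Of 12 markers of stroma and fibroblasts, 8 fell and 0 rose from day 5 to 7 in the ipsilateral horn (median log2 change -0.69, against -0.01 over all tested genes, of which 14.8% fell), and 4 fell and 0 rose in the contralateral horn (median -0.43, all genes -0.00, with 9.65% lower). The ipsilateral count was 4 without the day-7 library tagged 4-064 and 5 without that tagged 6-338, and the contralateral count was 2 without the day-5 library tagged 7-300 or the day-7 one tagged 4-064. COL1A1, a chain of type I collagen, fell by 0.84 ± 0.24 on the log2 scale in the ipsilateral horn (adjusted p = 0.00686) and by 0.92 ± 0.24 in the contralateral horn (adjusted p = 0.00512). The summed level of the 12 markers ranged from 23391 to 33905 CPM on day 5 and from 12582 to 24610 CPM on day 7 in the ipsilateral horn. For the contralateral horn it ranged from 31265 to 52440 CPM on day 5 and from 18779 to 35338 CPM on day 7. Smooth muscle markers moved in the same direction, with 8 of 8 lower in the ipsilateral horn (median -1.78) and 2 of 8 in the contralateral horn (median -1.12). Without the ipsilateral day-5 library tagged 8-1350 the ipsilateral count was 4 (median -0.94), and the contralateral count ranged from 0 to 3 with a library left out, at 0 without the day-5 one tagged 1-315 and at 1 without the day-5 one tagged 7-300 or the day-7 ones tagged 4-064, 5-117 or 6-338. Their sum ranged from 719 to 5649 CPM on day 5, with a median of 909, and from 275 to 583 CPM on day 7 in the ipsilateral horn. Contralateral sums were 687 to 1329 and 337 to 669 CPM. LGALS1 fell again from day 7 to 13, where 1 stromal marker rose and 1 fell in the ipsilateral horn (median 0.05). The contralateral horn had 1 rising and 2 falling (median 0.00). Of all tested genes, 14.5% and 15.8% rose and 15.3% and 17.1% fell. With a library left out, 0 to 1 stromal markers rose in each horn, and 0 to 2 and 0 to 3 fell. Of 8 smooth muscle markers 1 rose and 0 fell in each horn. The part of either cell type in the fall of LGALS1 was not tested, and in whole tissue fewer cells of a type and less RNA per cell cannot be told apart.

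LGALS3 encodes galectin-3, which is found in macrophages and many epithelia. In the ipsilateral horn it stood at 73.6, 79.2, 96.7, 109 and 122 CPM on day 5. On day 7 the values were 37.2, 44.95, 63.7, 68.6 and 74.9 CPM. Only the highest day-7 library reached the lowest of day 5. The contralateral day-5 values were 78.9, 92.8, 96.4, 127 and 149.8 CPM. The day-7 values were 49.5, 52.1, 61.0, 78.1 and 83.5 CPM, with 1 library of day 7 inside the range of day 5. LGALS3 fell by 0.73 ± 0.19 on the log2 scale in the ipsilateral horn (1.66-fold, adjusted p = 0.00443) and by 0.75 ± 0.19 in the contralateral horn (1.68-fold, adjusted p = 0.00535).

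After day 7 no step in LGALS3 passed. The ipsilateral means were 57.9 ± 16.1, 62.1 ± 12.5 and 71.9 ± 4.84 CPM (SD, n = 5) on days 7, 13 and 16. The contralateral means were 64.8 ± 15.3, 66.9 ± 11.4 and 72.1 ± 17.3 CPM. The log2 change from day 7 to 13 was 0.10 (95% interval -0.29 to 0.49, adjusted p = 0.738) in the ipsilateral horn and 0.04 (-0.35 to 0.44, adjusted p = 0.887) in the contralateral horn. Ordered by mean, every LGALS3 group overlapped the next. The genes most like LGALS3 over the 40 libraries were CAV1, the coat protein of caveolae (r = 0.81), CRYZ, a quinone reductase (0.81), and GPX3, a secreted glutathione peroxidase (0.78). LGALS1 and LGALS3 themselves had an r of 0.66, and 0.39 after removal of the group means.

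Macrophage markers were measured beside LGALS3. Of 10 markers of macrophages and dendritic cells, 1 fell and 0 rose from day 5 to 7 in each horn (list medians -0.12 and -0.18). At that step 14.8% of all tested genes fell in the ipsilateral and 9.65% in the contralateral horn. The marker was MRC1, the mannose receptor (log2 change -0.99 ± 0.27, adjusted p = 0.00554, and -0.85 ± 0.27, adjusted p = 0.0219). The ipsilateral call was lost in a fit of only the 2 groups (adjusted p = 0.0541), and the contralateral one without the day-5 library tagged 1-315 or the day-7 ones tagged 4-064 or 5-117 (up to 0.0759). A second marker fell without the ipsilateral day-5 library tagged 8-1350 and without the contralateral day-7 one tagged 2-1337. The summed level of the 10 markers ranged from 136 to 479 CPM on day 5 and from 124 to 486 CPM on day 7 in the ipsilateral horn. Contralateral sums were 255 to 409 CPM and 159 to 575 CPM. Of 16 epithelial markers, 9 rose and 2 fell at that step in the ipsilateral horn (list median 0.56), where 15.9% of all tested genes rose. In the contralateral horn 5 rose and 3 fell (0.22), against 10.1% of all genes rising, with 1 to 5 rising when a library was left out. The part of either cell type in the fall of LGALS3 was not tested.

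LGALS4 encodes galectin-4, known from gut epithelium, where it binds glycoproteins and sulfated lipids at the apical membrane. In the ipsilateral horn its libraries held 16.9, 21.1, 21.1, 24.4 and 25.99 CPM on day 5. They held 22.5, 27.9, 29.1, 30.8 and 31.4 CPM on day 7. On day 13 the values were 44.6, 45.9, 51.3, 52.2 and 61.4 CPM, above every library of the other days. On day 16 they were back at 26.7, 26.7, 29.5, 34.7 and 36.5 CPM. The contralateral libraries followed the same course, with 16.5, 19.7, 22.4, 27.6 and 27.9 CPM on day 5. They held 19.5, 22.5, 25.2, 28.5 and 31.1 CPM on day 7, and 42.8, 43.9, 44.2, 53.8 and 54.2 CPM on day 13. On day 16 they held 23.4, 24.5, 27.1, 28.01 and 34.9 CPM. The 10 libraries of day 13 did not overlap the other 30.

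LGALS4 rose from day 7 to 13 by 0.85 ± 0.14 on the log2 scale in the ipsilateral horn (1.80-fold, adjusted p = 1.99e-05) and by 0.91 ± 0.14 in the contralateral horn (1.88-fold, adjusted p = 5.52e-06). It fell from day 13 to 16 by 0.73 ± 0.14 in the ipsilateral horn (1.66-fold, adjusted p = 0.00619) and by 0.79 ± 0.14 in the contralateral horn (1.73-fold, adjusted p = 0.00315). In a fit of only the 2 ipsilateral groups, the fall of 0.73 had an adjusted p of 0.0513. The small ipsilateral rise from day 5 to 7 (0.37 ± 0.14, 1.30-fold, adjusted p = 0.0453) was lost with no low-count filter (adjusted p = 0.0717), in a fit of only the 2 groups (0.0724) and without any of 7 of the 10 libraries (up to 0.149), those tagged 3-175, 4-184 and 8-1350 on day 5 and 2-1337, 2-371, 4-064 and 6-338 on day 7. The contralateral change at that step was 0.15 (95% interval -0.14 to 0.44, adjusted p = 0.504).

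The genes most like LGALS4 were COL22A1, a collagen of tissue junctions (r = 0.85), LOC522479 (0.84) and ASAH1, the lysosomal acid ceramidase (0.83). After removal of the group means their r fell to 0.48, 0.30 and 0.30, so the likeness lay mostly in the shared course over the 8 groups. Of 16 epithelial markers, 5 rose and 5 fell from day 7 to 13 in the ipsilateral horn (list median -0.15) and 5 rose and 4 fell in the contralateral horn (-0.05), where all genes had medians of 0.01. At that step 14.5% of all tested genes rose and 15.3% fell in the ipsilateral horn, against 15.8% and 17.1% in the contralateral horn. With a library of the step left out, 4 to 5 rose and 2 to 5 fell in the ipsilateral horn, and 5 rose and 1 to 6 fell in the contralateral horn. The ipsilateral falls were 2 or 3 without tags 4-064 or 5-117 of day 7 or 5-167 or 6-203 of day 13, and the contralateral ones 1 or 2 without tags 2-371, 4-064 or 5-117 of day 7 or 4-1314, 5-167 or 8-275 of day 13. Among those that rose was CLDN4, a tight junction claudin, with a log2 change of 2.29 ± 0.26 in the ipsilateral horn (adjusted p = 2.28e-08). Among those that fell in that horn was KRT19, a keratin, with a log2 change of -0.71 ± 0.18 (adjusted p = 0.00295). The summed level of the 16 markers ranged from 1607 to 2097 CPM on day 7 and from 1698 to 2524 CPM on day 13 in the ipsilateral horn. In the contralateral horn it ranged from 1665 to 2291 and from 1924 to 2699 CPM. Their part in the course of LGALS4 was not tested.

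**Figure D2:**
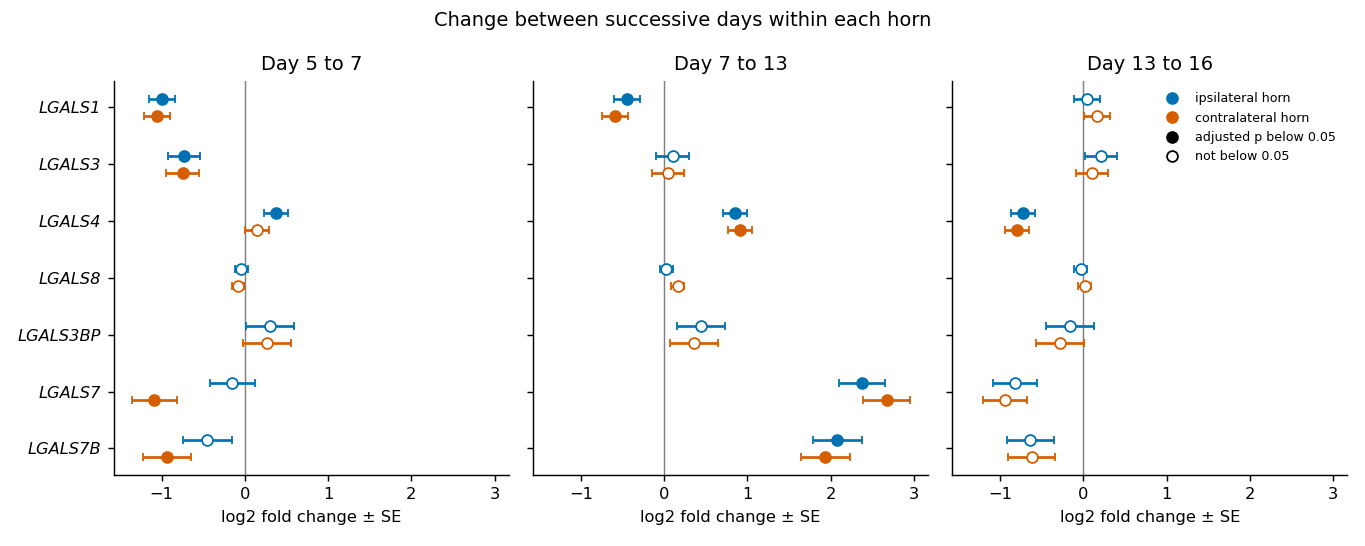
Log2 fold change with its standard error for 7 galectin rows between successive days, blue for the ipsilateral and orange for the contralateral horn. Filled points passed at an adjusted p below 0.05 and open points did not. LGALS1 and LGALS3 lie left of 0 from day 5 to 7, and LGALS4, LGALS7 and LGALS7B lie right of 0 from day 7 to 13.

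LGALS7 and LGALS7B were not among the 6 genes followed but come from a list of 13 other galectin family names, of which 6 matched rows and 3 were tested. Both are named for galectin-7, known from stratified epithelia. In the RefSeq annotation of the ARS-UCD2.0 assembly LGALS7, LOC785843, LGALS7B and LGALS4 follow each other in that order. No source used here says how reads that fit more than 1 of these genes were counted, so their separate values are uncertain. LGALS7 held 1.82, 2.49, 3.05, 3.24 and 4.39 CPM on day 7 and 13.6, 13.7, 14.8, 16.7 and 19.04 CPM on day 13 in the ipsilateral horn. In the contralateral horn it held 1.37, 2.11, 3.15, 3.41 and 4.11 CPM on day 7 and 10.7, 18.8, 19.9, 19.9 and 21.1 CPM on day 13. LGALS7 rose by 2.38 ± 0.28 on the log2 scale (5.20-fold, adjusted p = 3.97e-08) in the ipsilateral horn and by 2.67 ± 0.28 (6.38-fold, adjusted p = 4.19e-09) in the contralateral horn. LGALS7B rose by 2.08 ± 0.30 (adjusted p = 1.3e-06) and by 1.94 ± 0.29 (adjusted p = 2.95e-06).

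From day 5 to 7, LGALS7 fell in the contralateral horn by 1.09 ± 0.27 on the log2 scale (adjusted p = 0.00404), while in the ipsilateral horn its change was -0.15 ± 0.27 (adjusted p = 0.713). LGALS7B fell by 0.94 ± 0.29 in the contralateral horn (adjusted p = 0.0188), a call lost in a fit of only the 2 groups (0.0704) and without any of 3 libraries (day-5 tags 3-175 and 4-184, day-7 tag 6-338, up to 0.0799). On day 5 LGALS7 was lower in the ipsilateral horn (3.32 ± 0.925 against 6.02 ± 2.05 CPM, SD, n = 5, adjusted p = 0.0184). That horn call was lost in a fit of only the 2 groups (adjusted p = 0.0726) and with each library's small-RNA share as a covariate (0.054). It was also lost without the ipsilateral library tagged 1-315 or the contralateral ones tagged 3-175 or 4-184 (up to 0.0777). LGALS7B was lower in the ipsilateral horn as well, on day 5 (-0.80 ± 0.29, adjusted p = 0.0404) and on average over days (-0.37 ± 0.14, 0.0403). Its day-5 call was lost when any of 6 libraries was left out, and its average when any of 13 was. Both were lost with the small-RNA covariate (0.0644 and 0.144). The average of LGALS7 did not pass (-0.27, adjusted p = 0.108). From day 13 to 16, LGALS7 and LGALS7B, unlike LGALS4, did not pass, with log2 changes of -0.82 and -0.64 in the ipsilateral horn and -0.94 and -0.62 in the contralateral horn. For LGALS7 in the contralateral horn the adjusted p was 0.0672, and it passed in DESeq2 (0.0195) and without the day-13 library tagged 8-275 or the day-16 one tagged 7-107 (down to 0.0339). The difference between these genes and LGALS4 was not tested. LGALSL, a galectin-like gene, was the remaining row tested, with group means of 43.7 to 61.2 CPM. It fell by 0.24 ± 0.09 on the log2 scale from day 5 to 7 in the ipsilateral horn (adjusted p = 0.0394), a call lost in a fit of only the 2 groups (0.0797) and without any of 5 libraries (day-5 tags 1-315, 4-184 and 8-1350, day-7 tags 4-064 and 5-117, up to 0.164). LGALS2, LGALS12 and GRIFIN stayed at or below 0.185 CPM in every library and were not tested. The other names of the list, LGALS15 among them, matched no row.

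LGALS8 encodes galectin-8, which binds sugars exposed on damaged vesicles and recruits the autophagy receptor CALCOCO2 to them. It was the steadiest of the 5 members tested, with 93.0 to 140.7 CPM over all 40 libraries, a 1.51-fold span where the other 4 spanned 3.73-fold to 6.15-fold. It did not pass in any step between days, and over all 4 days the adjusted p was 0.923 in the ipsilateral and 0.133 in the contralateral horn. The widest step was the contralateral one from day 7 to 13 (log2 change 0.17, 95% interval 0.01 to 0.32, adjusted p = 0.0997). It passed when any of 3 contralateral day-13 libraries was left out (tags 5-140, 5-167 and 6-203), with an adjusted p down to 0.0233. The contralateral test over all days passed when any of 4 libraries was left out (day-13 tags 5-140 and 5-167, day-16 tags 3-155 and 8-245), with an adjusted p down to 0.0158.

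Between the horns LGALS8 differed. On day 5 the ipsilateral libraries held 124, 125, 126, 131 and 139 CPM and the contralateral ones 93.0, 101, 113, 116 and 119.9 CPM. On day 7 the ipsilateral libraries held 117, 122, 122, 132 and 133 CPM and the contralateral ones 94.9, 95.2, 103, 109.7 and 110.1 CPM. The horns did not overlap on either day. On day 13 the ipsilateral libraries held 115, 125, 126, 133 and 141 CPM against 101, 106, 108, 126 and 133 CPM in the contralateral horn. On day 16 the values were 113, 113, 131, 132 and 135 CPM against 105, 115, 117, 122 and 124 CPM, and the horns overlapped on both later days.

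Averaged over the 4 days, LGALS8 was higher in the ipsilateral horn by 0.20 ± 0.04 on the log2 scale (1.15-fold, adjusted p = 8.61e-05). The difference was 0.25 ± 0.08 on day 5 (1.19-fold, adjusted p = 0.0164) and 0.29 ± 0.08 on day 7 (1.22-fold, adjusted p = 0.0104). On day 13 it was 0.15 (95% interval -0.00 to 0.31, adjusted p = 0.298) and on day 16 0.10 (-0.06 to 0.26, adjusted p = 0.603). The horn difference of LGALS8 was not shown to change between days (interaction, adjusted p = 1). No gene passed that interaction test in edgeR (0 of 20356, or 0%), where 572 had an unadjusted p below 0.05, and limma-voom and DESeq2 also called 0.

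Of the 5 genes tested, LGALS8 alone passed on day 5, where 22.7% of all genes passed, and on day 7, where 11.7% passed. None passed on day 13, where 5.72% of all genes did, or on day 16, where 4.53% did. In the average over days 2 passed, LGALS8 higher and LGALS3BP lower in the ipsilateral horn, against 38.2% of all genes.

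The share of reads in microRNA and tRNA genes also differed between the horns. It averaged 0.0112% against 0.00885% of reads on day 5, 0.0125% against 0.00972% on day 7, 0.0148% against 0.0118% on day 13 and 0.0152% against 0.0129% on day 16, each higher in the ipsilateral horn. On days 5, 7 and 13 its ranges did not overlap between the horns, so the share and the horn can hardly be told apart. With the log2 of that share as a covariate, the LGALS8 difference was 0.27 on day 5 (adjusted p = 0.0795) and 0.31 on day 7 (adjusted p = 0.148). Without the covariate these differences were 0.25 and 0.29. The average stayed past the threshold with the covariate (adjusted p = 0.0444). The day-5 call was also lost without the ipsilateral library tagged 7-300 or the contralateral ones tagged 3-175 or 4-184 (adjusted p up to 0.0806). The genes most like LGALS8 were FAM135A (r = 0.86), SPPL2A, an intramembrane protease (0.83), and REEP3, a shaper of the endoplasmic reticulum (0.83).

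**Figure D3:**
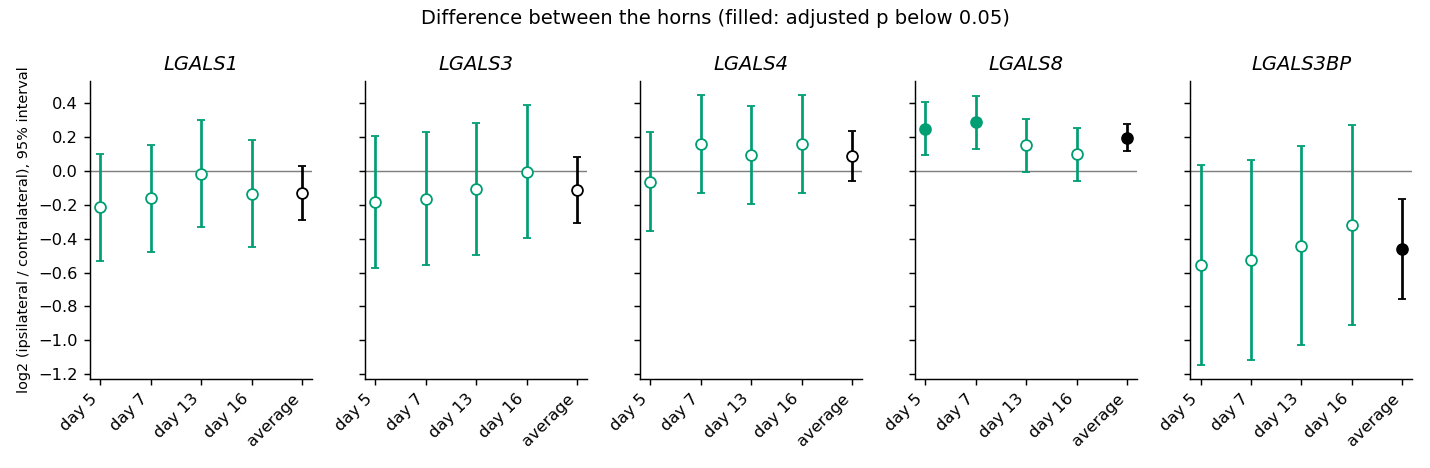
Log2 ratio of the ipsilateral to the contralateral horn with its 95% interval for the 5 galectin genes tested, on each day (green) and averaged over the 4 days (black). Filled points passed at an adjusted p below 0.05. LGALS8 lies above 0 on every day and LGALS3BP below 0 on every day, with passing averages of 0.20 and -0.46.

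LGALS1, LGALS3 and LGALS4 did not pass between the horns on any day or on average. Their average differences were -0.13 (95% interval -0.29 to 0.03, adjusted p = 0.196), -0.11 (-0.31 to 0.08, adjusted p = 0.384) and 0.09 (-0.06 to 0.23, adjusted p = 0.358) on the log2 scale. Each interval holds a difference as large as that of LGALS8, in the negative direction for LGALS1 and LGALS3 and in the positive direction for LGALS4.

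LGALS3BP encodes a secreted glycoprotein that binds galectin-3 and is known as an interferon-induced gene. On day 5 it stood at 45.6, 68.0, 69.2, 79.0 and 118 CPM in the ipsilateral horn and at 81.2, 81.9, 89.9, 134 and 170.4 CPM in the contralateral horn. On day 7 it stood at 61.3, 70.3, 72.1, 91.4 and 172 CPM in the ipsilateral and at 85.0, 91.0, 98.4, 116 and 280.4 CPM in the contralateral horn. In each horn a single library of day 7 stood far above the other 4. On day 13 the ipsilateral libraries held 97.7, 108, 112, 145 and 172 CPM and the contralateral ones 113, 145, 160.1, 221 and 221 CPM. On day 16 they held 95.2, 101, 109, 115 and 147 CPM and 113, 135, 147, 155 and 158 CPM. The horns overlapped on every day.

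Averaged over days, LGALS3BP was lower in the ipsilateral horn by a log2 difference of -0.46 ± 0.15 (1.37-fold, adjusted p = 0.0113). With the small-RNA share as a covariate, which can hardly be told apart from the horn, the difference was -0.49, with an adjusted p of 0.295. Single days gave -0.55, -0.52, -0.44 and -0.32 from day 5 to day 16, and none passed. Epithelial and stromal markers were lower there as well. Of 16 epithelial markers, 9 were lower and 0 higher in the ipsilateral horn on average (list median -0.33, all genes -0.01). Of the 20356 genes tested 38.2% passed in either direction, 3990 higher and 3778 lower. By single days, 9 epithelial markers were lower on day 5, and 0 passed on day 7, 13 or 16. The sum of the 16 on day 5 ranged from 1131 to 1697 CPM in the ipsilateral and from 1686 to 2244 CPM in the contralateral horn. On day 7 the sums were 1607 to 2097 and 1665 to 2291 CPM, on day 13 1698 to 2524 and 1924 to 2699 CPM, and on day 16 1642 to 2389 and 2048 to 2573 CPM. Of 12 stromal markers, 6 were lower and 0 higher on average (list median -0.27). Of the gland, blood vessel and macrophage markers, 2 of 7, 2 of 8 and 2 of 10 were lower and 0 higher. These counts lay near the share of all genes that were lower, 3778 of 20356. Smooth muscle and ciliated cell markers had 1 of 8 and 1 of 6 higher and 0 lower, and 0 T cell or B cell markers passed. The part of these cell types in the LGALS3BP difference was not tested.

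No step of LGALS3BP between days passed. From day 7 to 13 the log2 change was 0.44 (95% interval -0.15 to 1.03, adjusted p = 0.265) in the ipsilateral and 0.36 (-0.23 to 0.95, adjusted p = 0.372) in the contralateral horn. Single libraries decided these calls. Without the highest ipsilateral library of day 7 (tag 4-064) the ipsilateral rise was 0.78 (adjusted p = 0.0388), and without the highest contralateral one (tag 5-117) the contralateral rise was 0.82 (adjusted p = 0.0179). The test over all days, with adjusted p of 0.117 and 0.279, also passed without those libraries or, in the ipsilateral horn, without the day-5 library tagged 1-315 (down to 0.0256 and 0.0311). The horn difference on day 7 passed without the ipsilateral library tagged 4-064 (adjusted p = 0.0463).

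LGALS9 encodes galectin-9, a ligand of the immune checkpoint receptor HAVCR2 (TIM-3) that is known to be induced by interferon. The row of that name held 2 reads in all, 1 read in each of 2 libraries, and was not tested. The other 38 libraries were at 0 reads, which allows a level of up to 0.113 CPM in the shallowest library (3 reads, counting error only). A second row, LGALS9-2, held 52996 reads, with 574 to 3294 in each library. The sources used here do not say what the suffix means, and the RefSeq table has a single gene called LGALS9. LGALS9-2 is described because of that, after its values were seen, and is not counted with the 6.

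LGALS9-2 ranged from 17.9 to 114.0 CPM. In the ipsilateral horn the medians were 31.2, 29.04, 34.4 and 28.6 CPM on days 5, 7, 13 and 16, and in the contralateral horn 30.5, 36.02, 42.7 and 32.6 CPM. The medians stayed close while single libraries stood far above them, up to 60.9 and 64.5 CPM on day 5 and 100.02 and 114.0 CPM on day 7 in the ipsilateral and contralateral horns. On day 16 the ranges were narrow, 27.5 to 31.98 and 29.3 to 44.4 CPM. No day step or horn difference of LGALS9-2 passed (average horn difference -0.21, 95% interval -0.60 to 0.18, adjusted p = 0.416).

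LGALS3BP and LGALS9-2 varied together between libraries. Their log2 CPM had an r of 0.76 over the 40 libraries and 0.93 after removal of the group means, the highest of the 15 pairs among the 5 genes tested and LGALS9-2. The genes most like LGALS3BP were PSMF1, a proteasome inhibitor (r = 0.90), SHISA5 (0.88) and C1R, a serine protease of the complement cascade (0.87). Those most like LGALS9-2 were ZNFX1, an RNA helicase of antiviral sensing (0.92), UBA7, the enzyme that activates ISG15 for conjugation (0.92), and LOC786073 (0.92).

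In each horn, the day-7 library with the highest LGALS3BP and LGALS9-2 also held the highest level of interferon-stimulated genes, counted here as the summed CPM of 22 such genes. The ipsilateral day-7 library tagged 4-064 had a sum of 7868 CPM, with 333 CPM of ISG15, a ubiquitin-like antiviral protein. The contralateral day-7 library tagged 5-117 had 8308 CPM, with 404 CPM of ISG15. The medians of those groups were 722 and 737 CPM. On day 5 the sums ranged from 535 to 3858 CPM in the ipsilateral and from 657 to 3086 CPM in the contralateral horn. On day 13 they ranged from 899.9 to 3047 and from 967 to 3119 CPM. On day 16 all 10 libraries lay between 723 and 1030.0 CPM. Across groups, a high LGALS3BP level did not always go with a high sum. The contralateral day-16 library tagged 5-137 had 158 CPM of LGALS3BP at a sum of 900 CPM. The ipsilateral day-5 library tagged 1-315 had less LGALS3BP, 118 CPM, at a sum of 3858 CPM. Within its own group, that library had both the highest LGALS3BP and the highest sum.

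The heifer tags of the highest libraries differed between the horns. On day 7 the ipsilateral library tagged 4-064 had 172 CPM of LGALS3BP, and the contralateral library with that tag had 98.4 CPM. The contralateral library tagged 5-117 had 280.4 CPM and the ipsilateral library with that tag 91.4 CPM. On day 5 the highest LGALS3BP was in tag 1-315 in the ipsilateral horn (118 CPM, against 81.2 CPM in the contralateral horn) and in tag 3-175 in the contralateral horn (170.4 CPM, against 69.2 CPM). Whether the horns of a heifer differed or tags were exchanged was not tested.

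Few of the interferon-stimulated genes passed in the tests between groups. Of 22, 1 rose and 0 fell from day 5 to 7 in the ipsilateral horn, with a list median of 0.82 against -0.01 over all genes, of which 30.7% passed. In the contralateral horn 0 passed, with a median of 1.08 against -0.00 over all genes, of which 19.8% passed. Single libraries moved these medians: without the ipsilateral day-7 library tagged 4-064 the ipsilateral one was -0.29, and with a contralateral library left out the contralateral one ranged from -0.08 to 1.70. The 1 was IRF7, a transcription factor of the interferon response (1.34 ± 0.46, adjusted p = 0.0264). From day 7 to 13, 0 rose and 1 fell in the ipsilateral horn, again IRF7 (-1.25 ± 0.46, adjusted p = 0.0385), where 29.8% of all genes passed. The contralateral horn had 0 passing, against 32.9% of all genes. The list medians were -0.87 in the ipsilateral and -0.83 in the contralateral horn (all genes 0.01 in each). With a library of the step left out these medians ranged up to 0.41 and 0.40. Without the ipsilateral day-7 library tagged 4-064 the adjusted p of IRF7 was 0.446 and 0.563, and both calls were also lost in a fit of only the groups compared (0.118 and 0.103). The first was lost without any of 4 day-5 libraries as well (tags 3-175, 4-184, 7-300 and 8-1350, adjusted p up to 0.0663). The second was lost with no low-count filter (0.0554) and without any of 3 day-13 libraries (tags 5-140, 5-167 and 8-275, up to 0.0957). From day 13 to 16 0 of 22 passed in either horn, where 1.02% and 1.33% of all genes passed. The list medians were -1.05 in the ipsilateral and -1.10 in the contralateral horn (all genes 0.00 in each), and with a library left out they ranged from -1.17 to -0.81 and from -1.24 to -0.88. Without the ipsilateral day-5 library tagged 1-315, 4 of 22 rose from day 5 to 7, and without any of the day-7 libraries tagged 2-1337, 2-371 or 6-338, 2 did. In the contralateral horn 1 rose at that step without the day-5 library tagged 3-175 or any of those 3 of day 7, and 1 fell from day 7 to 13 without the day-7 library tagged 2-1337 or 4-064. In the average horn difference 0 of 22 passed (list median 0.07), where 38.2% of all genes passed.

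**Figure D4:**
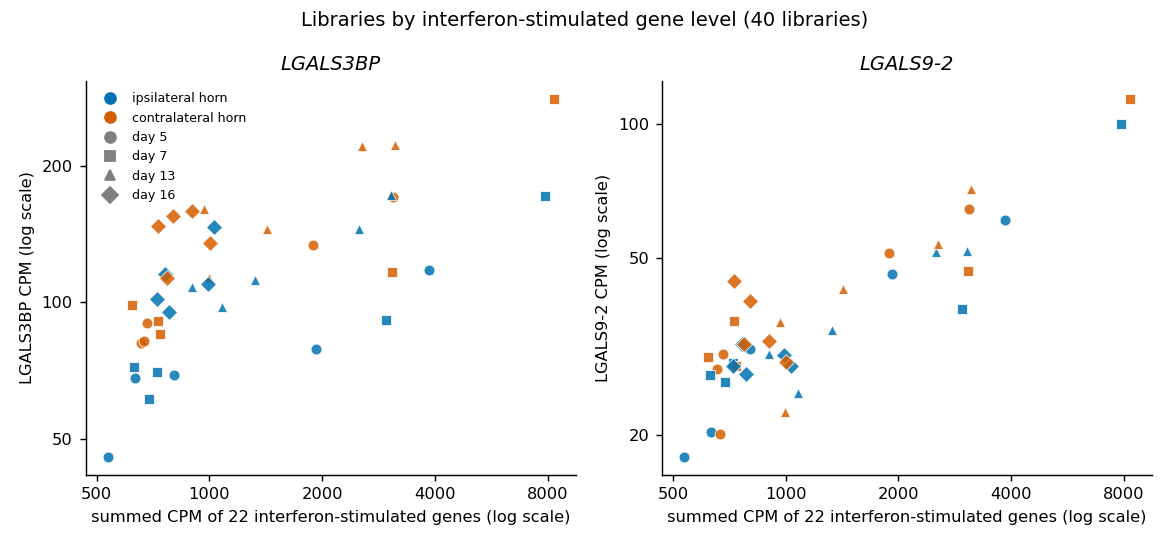
LGALS3BP (left) and LGALS9-2 (right) against the summed CPM of 22 interferon-stimulated genes in the 40 libraries, all axes on log scales. Colours give the horn and marker shapes the day. The 2 day-7 libraries with sums of 7868 and 8308 CPM have the highest LGALS9-2, and the day-16 libraries lie together at sums of 723 to 1030.0 CPM.

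Galectins bind glycoproteins, and the genes of 36 surface and matrix glycoproteins known as galectin ligands were followed as a list, of which 35 were tested. From day 5 to 7, 8 rose and 10 fell in the ipsilateral horn (list median -0.20, all genes -0.01), and 6 rose and 9 fell in the contralateral horn (-0.17, all genes -0.00). Of all tested genes 15.9% rose and 14.8% fell in the ipsilateral horn at that step, and 10.1% rose and 9.65% fell in the contralateral horn. ITGB4, the integrin chain of hemidesmosomes, rose by 1.39 ± 0.20 on the log2 scale in the ipsilateral horn (adjusted p = 3.75e-06) and by 0.92 ± 0.20 in the contralateral horn (adjusted p = 0.00108). CD44, the hyaluronan receptor, fell by 1.90 ± 0.34 in the ipsilateral horn (adjusted p = 6.44e-05). Without the day-5 library tagged 8-1350, which also moved the smooth muscle count, CD44 fell by 1.11 (adjusted p = 0.000788). MUC16, a large membrane mucin of the epithelial surface, fell by 3.12 ± 0.79 in the contralateral horn (adjusted p = 0.00455). In the ipsilateral horn MUC16 fell by 2.65 ± 0.77 (adjusted p = 0.00878), a call lost in a fit of only the 2 groups (0.0716).

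From day 7 to 13, 4 of the 35 rose and 7 fell in the ipsilateral horn (list median 0.05, all genes 0.01), and 9 rose and 8 fell in the contralateral horn (0.12, all genes 0.01). Of all tested genes 14.5% rose and 15.3% fell in the ipsilateral horn, and 15.8% rose and 17.1% fell in the contralateral horn. BSG, or basigin, a surface glycoprotein that induces matrix metalloproteinases, fell by 1.65 ± 0.15 in the ipsilateral and fell by 1.71 ± 0.15 in the contralateral horn (adjusted p = 2.73e-10 and 1.11e-10). MERTK, a receptor for the clearance of dying cells that binds galectin-3, rose by 1.03 ± 0.14 and 1.10 ± 0.14 (adjusted p = 3.04e-07 and 8.29e-08). ITGB3, the beta chain of the vitronectin receptor, fell by 1.07 ± 0.22 in the ipsilateral and fell by 1.01 ± 0.22 in the contralateral horn (adjusted p = 0.000239 and 0.00039). At the next step ITGB3 rose again by 1.04 ± 0.22 and 1.16 ± 0.22 (adjusted p = 0.00986 and 0.00428). It was the only member of the list that rose at that step, with 0 falling in the ipsilateral and 1 in the contralateral horn, where 1.02% and 1.33% of all genes passed. The contralateral fall was lost without any of 8 of the 10 libraries, all but tag 8-275 of day 13 and tag 7-107 of day 16. In the average horn difference 7 of the 35 were higher and 14 lower in the ipsilateral horn (list median -0.14, all genes -0.01), where 38.2% of all genes passed, and ITGA1, the collagen-binding integrin chain, was higher by 1.05 ± 0.10 (adjusted p = 3.72e-10).

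The sugars that galectins bind are built and capped by glycosyltransferases, and 29 of these were listed and tested. From day 5 to 7, 7 rose and 7 fell in the ipsilateral horn (list median -0.00, all genes -0.01) and 5 rose and 5 fell in the contralateral horn (0.02, all genes -0.00), where 30.7% and 19.8% of all genes passed. The contralateral counts were 3 to 5 higher and 2 to 5 lower with a library left out, the lower ones at 2 or 3 without tags 1-315, 4-184 or 7-300 of day 5 or 2-1337, 4-064 or 5-117 of day 7. MGAT3, which adds a bisecting branch to N-glycans, rose by 0.96 ± 0.16 on the log2 scale in the ipsilateral horn (adjusted p = 2.98e-05). B3GNT8, which extends the lactosamine chains that galectins favour, fell by 1.02 ± 0.26 in the ipsilateral and fell by 1.25 ± 0.26 in the contralateral horn (adjusted p = 0.00322 and 0.000791). GCNT1, which branches O-glycans, rose by 1.18 ± 0.22 in the contralateral horn (adjusted p = 0.00026).

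From day 7 to 13, 3 of the 29 glycosyltransferases rose and 11 fell in the ipsilateral horn (list median -0.30, all genes 0.01), and 4 rose and 13 fell in the contralateral horn (-0.18, all genes 0.01). Of all tested genes 15.3% fell in the ipsilateral and 17.1% in the contralateral horn, and 14.5% and 15.8% rose. FUT2, which adds terminal fucose in secretory epithelia, fell by 3.25 ± 0.41 in the ipsilateral and fell by 3.33 ± 0.41 in the contralateral horn (adjusted p = 1.31e-07 and 6.89e-08). ST6GALNAC1, a sialyltransferase that caps O-glycans, fell by 4.23 ± 1.06 in the ipsilateral horn (adjusted p = 0.00218). MGAT4A, which branches N-glycans, rose by 1.34 ± 0.30 and 1.82 ± 0.30 (adjusted p = 0.000621 and 1.27e-05). At the last step 0 passed in either horn, and 1 rose in the contralateral horn without the day-13 library tagged 8-275. Between the horns on average, 3 were higher and 10 lower in the ipsilateral horn (list median -0.15, all genes -0.01), where 38.2% of all genes passed, with B4GALT1, a galactosyltransferase that makes lactosamine, lower (log2 difference -0.38 ± 0.04, adjusted p = 2.42e-10).

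The cytosolic partners of galectins in the response to vesicle damage, 15 genes of autophagy and membrane repair, were tested last. From day 5 to 7, 8 of 15 rose and 0 fell in each horn, with list medians of 0.40 in the ipsilateral and 0.34 in the contralateral horn (all genes -0.01 and -0.00), where 15.9% and 10.1% of all genes rose. The contralateral count was 5 without the day-5 library tagged 1-315 or 7-300 or the day-7 one tagged 2-371 or 5-117. Epithelial markers moved at the same step: 9 of 16 rose and 2 fell in the ipsilateral horn (list median 0.56), and 5 rose and 3 fell in the contralateral horn (0.22), the latter with 1 to 5 rising when a library was left out (at most 3 without tags 1-315, 4-184 or 7-300 of day 5 or 2-371, 4-064 or 5-117 of day 7). Of 7 gland markers 4 rose in the ipsilateral horn (list median 0.83), or 2 without the day-7 library tagged 5-117, and 1 in the contralateral horn (0.44), or 0 to 2 with a library left out. The part of these cell types in the rise of the 15 genes was not tested. MAP1LC3B, the LC3 protein of the autophagosome membrane, rose by 1.04 ± 0.16 and 1.03 ± 0.16 on the log2 scale (adjusted p = 1.09e-05 and 2.48e-05). CALCOCO2, the receptor that binds galectin-8, rose by 0.94 ± 0.13 and 0.88 ± 0.13 (adjusted p = 2.98e-06 and 1.31e-05), at a step where LGALS8 itself changed by -0.04 (95% interval -0.20 to 0.11) and -0.08 (-0.24 to 0.07). From day 7 to 13, 4 rose and 2 fell in each horn (list medians 0.13 and 0.16, all genes 0.01 in each). Of all tested genes 14.5% rose and 15.3% fell in the ipsilateral horn at that step, and 15.8% and 17.1% in the contralateral horn. GABARAPL2, another protein of the autophagosome membrane, rose by 0.98 ± 0.13 and 0.99 ± 0.13 (adjusted p = 4.37e-07 and 3.07e-07), MAP1LC3B fell by 0.78 ± 0.16 and fell by 0.83 ± 0.16 (adjusted p = 0.000251 and 0.000108), and MTOR, the growth kinase that galectin-8 is known to inhibit at lysosomes, fell by 0.41 ± 0.07 and fell by 0.50 ± 0.07 (adjusted p = 3.42e-05 and 1.27e-06).

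From day 13 to 16, 1 of the 15 rose and 1 fell in the ipsilateral horn and 1 rose in the contralateral horn, where 1.02% and 1.33% of all genes passed. In each horn the rise was lost in 8 of the 10 fits that left out a library of the step. The fall was lost without the ipsilateral libraries tagged 5-140 of day 13 or 7-107 of day 16. In the average horn difference 3 were higher and 7 lower in the ipsilateral horn (list median -0.09, all genes -0.01), where 38.2% of all genes passed. TAX1BP1, an autophagy receptor related to CALCOCO2, was higher there by 0.72 ± 0.06 (adjusted p = 1.74e-11), and PRKAA1, a catalytic subunit of the energy sensor AMPK that galectin-9 is known to activate at damaged lysosomes, by 0.38 ± 0.05 (adjusted p = 3.09e-07). TRIM16, which works with galectin-3 at damaged membranes, was lower by a log2 difference of -0.26 ± 0.07 (adjusted p = 0.00318), and by -0.46 with the small-RNA share as a covariate. These calls held with the small-RNA share as a covariate.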

How the data were processed

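The deposited table holds raw read counts per gene for 40 TruSeq stranded mRNA libraries, unnormalized by the authors. HISAT2, featureCounts and FastQC, without versions, and the genome build UMD3.1 are named in the submitters' processing notes, and their settings are not given in the sources used here. A final row repeating the sample titles and the mtDNA row (0.0812% to 0.578% of reads) were left out. How multimapped reads were counted is not given, which bears on LGALS7 and LGALS7B.

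Counts were tested with edgeR 4.0.16 (R 4.3.3): filterByExpr, TMM scaling, 1 quasi-likelihood fit over 8 groups and 40 libraries, and Benjamini-Hochberg adjustment over 20356 genes, with 0.05 as the threshold. SE is the log2 fold change divided by the root of F, and 95% intervals use the median total degrees of freedom of 35.3.

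The 6 genes, the lists and the markers were chosen with earlier results of these data known. The text names the 6 genes, for each the 3 genes with the highest Pearson r of log2 CPM (mean log2 CPM of at least 2), and of each list the 2 highest and 2 lowest passing changes per day step and average horn difference, a selection of which is printed. Symbols were matched to RefSeq (ARS-UCD2.0), from which no coordinates are given because the builds differ.

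The deviations of 20 tags from their group means correlated between horns with r from -0.258 to 0.669 (median -0.05), and only 5 exceeded 0.1, so the main fit has no block. Alternatives were RLE scaling, no low-count filter, only the libraries compared, a replicate block, the log2 small-RNA share as covariate, limma-voom (limma 3.58.1), DESeq2 1.42.0 and each library left out.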

Additional observations from a re-analysis of the deposited data

Results flagged for a closer look

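In 4 of the 48 gene and group combinations checked, the highest library stood far from the next. The gap passed Dixon's 95% limit for 5 samples, 0.71 of the group's range. For normally distributed values chance alone flags about 1 in 20 groups, and whether CPM on a linear scale follow that was not tested. All 4 were on day 7. They rest on 2 libraries and on LGALS3BP and LGALS9-2, which varied together (r of 0.93 after removal of the group means), so they are not independent. LGALS3BP was at 171.6 CPM in 1 ipsilateral library (tag 4-064), with the next at 91.4 CPM, and at 280.4 CPM in 1 contralateral library (tag 5-117), with the next at 116 CPM. LGALS9-2 was at 100.02 CPM in that same ipsilateral library, with the next at 38.4 CPM, and at 113.98 CPM in that same contralateral library, with the next at 46.9 CPM. These 2 libraries also had the highest summed level of interferon-stimulated genes of the 40, 7868 and 8308 CPM.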

How the results depend on the processing

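Over the alternatives, the 5 genes tested gave 1440 values, of which 1405 kept their side of the threshold, 22 lost it, 13 gained it and 0 passing changes reversed. Signs changed in 36 that did not pass. The counts of all genes moved most for the late step and the horns. From day 13 to 16 in the ipsilateral horn, 208 genes passed, against 22 in a fit of only the libraries compared and 434 in DESeq2, and 109 to 335 with a library left out. In the contralateral horn 271 passed, against 526 in DESeq2, and 124 to 287 with a library left out. The horn difference on day 5 called 4628 genes, against 2884 with only the libraries compared and 2240 with the small-RNA covariate. On day 7 it called 2386, against 231 with the covariate and 1462 to 3024 with a library left out. On day 13 it called 1165, against 742 with only the libraries compared, 110 with the covariate, 1778 in DESeq2 and 657 to 1299 with a library left out; 921 of 1165 were higher in the ipsilateral horn, but 814 of 1207 with RLE scaling. On day 16 it called 922, against 258 with the covariate, 1412 in DESeq2 and 550 to 1090 with a library left out. The average over days called 7768, against 2059 with the covariate. The cause of these moves was not tested, beyond the fewer samples in the fits that leave libraries out. The small-RNA share was higher on average in the ipsilateral horn on every day, so the covariate and the horn can hardly be told apart. Libraries whose absence moved a count past 1.5 times were, from day 13 to 16 in the ipsilateral horn, tags 4-1314 and 5-140 of day 13 and 3-155, 5-137, 7-107 and 8-245 of day 16, and in the contralateral horn tags 5-140 and 5-167 of day 13 and 2-068, 3-155 and 8-245 of day 16. For the horns they were contralateral 5-117 on day 7, ipsilateral 4-1314 and contralateral 6-203 on day 13, and ipsilateral 2-068 and 5-137 and contralateral 2-068 and 8-245 on day 16.

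With the heifer tag as a replicate block, the horn counts were 4220, 2054, 890 and 674 on days 5, 7, 13 and 16, 7570 on average and 0 for the interaction, and the block changed no call of the 5 genes tested. Whether tags pair the horns is in doubt, since only 5 of 20 correlated above 0.1.

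Limits: 5 libraries a group allow small differences to be missed, as the intervals show, and p-values of the horn tests treat the 2 horns of a heifer as separate samples. Whole tissue does not locate a change in a cell type.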
